A study of Mus musculus with 27 samples.

Results

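The comparison described here is that of the double knockdown with its control in the nucleoplasm of mouse embryonic stem cells: 3 nucleoplasm libraries from cells given siRNA against Ptbp1 and Ptbp2 together, and 3 from cells given siRNA against GFP (siGFP). Its members are the genes with a level of at least 1 TPM (a unit that scales for transcript length and for the size of the library) in at least 3 of these 6 libraries, which were 14513 of the 53379 genes in the deposited table. The study transfected cells of the E14 line, which the labels give no genetic change and which were grown on gelatin with LIF, with siGFP, with siRNA against Ptbp1 (siPTBP1) or with both siRNAs. A second transfection followed after 24 h, and the cells were taken at 48 h and separated into cytoplasm (CY), nucleoplasm (NP) and chromatin (CH). Polyadenylated RNA of each treatment and fraction was sequenced in 3 replicates that the series calls biological, which gave 27 libraries in all.

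PTBP1 is a polypyrimidine tract binding protein that binds pyrimidine-rich stretches of RNA, represses many neuronal and muscle exons and acts on the retention of some introns. PTBP2 is its paralog of the nervous system, and PTBP1 promotes the skipping of a Ptbp2 exon whose absence sends the transcript to decay. The nucleoplasm fraction is meant to hold polyadenylated RNA that has left the chromatin and has not reached the cytoplasm. A change of a gene's level there can come with a change of synthesis, export or decay, and gene TPM cannot tell these apart, nor fewer cells of a type from less RNA per cell.

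The replicate number was used as a pairing of the libraries. Deviations from the group means correlated by 0.665, 0.508 and 0.514 between the control and double-knockdown nucleoplasm libraries of the same number. Between libraries of different number anywhere in the series the correlation had a median of -0.330 and a highest value of 0.353. The NP libraries held 13849 to 14999 genes with at least 1 TPM. Their read depth is not known from TPM. Transcripts of the mitochondrial genome took 9.68%, 15.6% and 13.7% of the TPM in the control libraries and 15%, 22.5% and 19.1% in the double-knockdown libraries. In control cytoplasm they took 0.0511%, 0.0582% and 0.111%, and in control chromatin 0.574%, 1.68% and 0.658%. The NP fraction thus also held RNA from outside the nucleus. The embryonic stem cell markers Pou5f1 and Sox2 were present in all 6 libraries, Pou5f1 at 515.8 to 1177.99 TPM and Sox2 at 69.29 to 139.94 TPM.

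The targeted genes were measured first. Ptbp1 (chr10:79854427-79864771, mm10, as all coordinates here) stood at 483.92, 287.44 and 401.48 TPM in the control libraries and at 152.8, 79.37 and 87.11 TPM in the double knockdown. The groups did not overlap, and the mean of the double knockdown was 27.2% of the control's. On the log2(TPM + 1) scale Ptbp1 fell by 1.90 ± 0.19 (limma, moderated linear model over all genes, Benjamini-Hochberg adjusted p = 3.06e-06). Ptbp2 (chr3:119718742-119784466) stood at 7.81, 19.38 and 20.33 TPM in the control and at 3.56, 12.49 and 11.3 TPM in the double knockdown. Control replicate 1 lay below 2 of the double-knockdown libraries, so the groups overlapped, although each pair went down. Ptbp2 fell by 0.78 ± 0.16 (limma, adjusted p = 0.00575), to 57.6% of the control mean. Its call was lost without control replicate 1 (adjusted p = 0.0643) and in the fit without the replicate block (adjusted p = 0.998). Ptbp3, another member of the family, did not pass the test, with a log2 difference of -0.32 ± 0.20 (limma, adjusted p = 0.389). Of the PTBP1 partners, the PTB-binding proteins Raver1 and Raver2 and the nuclear matrix protein Matr3 were not called either.

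Genes with an adjusted p under 0.05 are called. In the double knockdown 461 of the 14513 genes were called (3.18%), 263 higher (1.81%) and 198 lower (1.36%). The median log2 difference was 0.79 among the called higher and -0.80 among the called lower, against -0.06 over all genes tested. At least a doubling on the log2(TPM + 1) scale was reached by 55 of the called higher, and a fall of the same size by 50 of the called lower. The libraries of the 2 groups did not overlap for 210 of the 263 genes called higher and 136 of the 198 called lower, while 1753 of all genes tested did not overlap (12.1%). Every pair of libraries went the same way for 262 of the 263 and for all 198. The test itself used the pairing, so this agreement follows largely from how the genes were selected and is no separate support. Of the genes called higher 26 had passed the filter only through the double-knockdown libraries, and of those called lower 9 only through the control libraries. Genes of either kind had to differ to be tested at all, so their tests are no support and their values are given as a description. Without the replicate block 33 genes were called, all of them among the 461. The share of calls that were higher was 57% in TPM as deposited and 76.8% when TPM was rescaled without mitochondrially encoded genes and the gene Mir6236 (555 higher and 168 lower). It was 39.7% without all replicate 1 libraries (587 higher and 893 lower), 45% without double-knockdown replicate 1 (104 and 127) and 47.5% with the block fitted on the 6 libraries of the contrast only (655 and 725), so whether more genes were higher or lower changed with the fit. The rescaling moved the median log2 difference over all genes from -0.062 to 0.023.

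Muscle-type actins and myosin light chains were among the genes with the largest rises. Actc1, the cardiac alpha actin (chr2:114047282-114053548), stood at 4.23, 3.6 and 11.53 TPM in the control and at 62.74, 77.52 and 146.56 TPM in the double knockdown. Every double-knockdown library lay above every control library, and the log2 difference of 3.75 ± 0.28 was the largest of the named genes (limma, adjusted p = 3.77e-08). Acta2, the smooth muscle alpha actin (chr19:34241090-34255590), went from 40.27, 24.93 and 40.61 TPM to 139.73, 137.54 and 219.78 TPM without overlap. Its log2 difference was 2.20 ± 0.42 (limma, adjusted p = 0.00598, and 0.0929 without the replicate block). Acta1, the skeletal alpha actin, went from 19.89, 1.96 and 7.56 TPM to 101.61, 16.6 and 45.63 TPM. The groups overlapped, since control replicate 1 lay above double-knockdown replicate 2, but each pair went up, with a log2 difference of 2.44 ± 0.47 (limma, adjusted p = 0.00703, and 0.659 without the block).

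Myl9, the regulatory light chain of smooth muscle and non-muscle myosin, stood at 23.25, 7.85 and 16.66 TPM in the control and at 52.98, 43.17 and 81.13 TPM in the double knockdown. The groups were separate, and the log2 difference was 1.90 ± 0.27 (limma, adjusted p = 0.000193, and 0.193 without the block). Myl3, the essential light chain of the ventricle and slow muscle, was low throughout, at 0.6, 0.99 and 0.09 TPM in the control and 3.96, 4.05 and 3.18 TPM in the double knockdown. Its log2 difference was 1.64 ± 0.21. It is one of the 26 genes that passed the filter only through the double-knockdown libraries, so its call is not used as support. Cnn2, a calponin that binds actin, rose by 1.07 ± 0.24 with overlapping groups (limma, adjusted p = 0.0141). That call was lost without the block (adjusted p = 0.739), without control replicate 2 or 3 and without double-knockdown replicate 2 or 3 (adjusted p up to 0.0811).

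Not all of the family went up. Of the 23 actins, myosin light chains, tropomyosins, calponins and transgelins tested, 6 were called higher and 2 lower, beside 1.81% and 1.36% of all genes tested. Myl3, 1 of the 6, passed the filter only through the double knockdown. The list's median log2 difference was 0.04. Actg1, the cytoplasmic gamma actin and the most abundant of them, went from 3425.99, 1741.49 and 2549.9 TPM to 2210.98, 925.33 and 1253.77 TPM. Its groups overlapped and its log2 difference was -0.86 ± 0.24 (limma, adjusted p = 0.0482). The Actg1 call was lost without the block (adjusted p = 0.682), under median-ratio scaling, when TPM was rescaled without mitochondrial genes, and without any of the 6 libraries other than double-knockdown replicate 1 (adjusted p up to 0.226). Tpm2, a tropomyosin with a PTBP1-regulated pair of exons, stood at 46.78, 41.6 and 36.12 TPM in the control and 24.66, 17.91 and 17.55 TPM in the double knockdown, and fell by 1.02 ± 0.23 (limma, adjusted p = 0.0137). The Tpm2 call was lost without the block (adjusted p = 0.15) and without control replicate 1 or double-knockdown replicate 2 or 3 (adjusted p up to 0.11). Actb, the other cytoplasmic actin, had a log2 difference of -0.23 ± 0.18 and was not called (limma, adjusted p = 0.512). Because Actg1 and Actb outweigh the muscle isoforms, the summed level of the list was lower in the double knockdown in every pair: 7650, 4600 and 6420 TPM in the control and 6610, 3920 and 5290 TPM in the double knockdown.

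**Figure D1:**
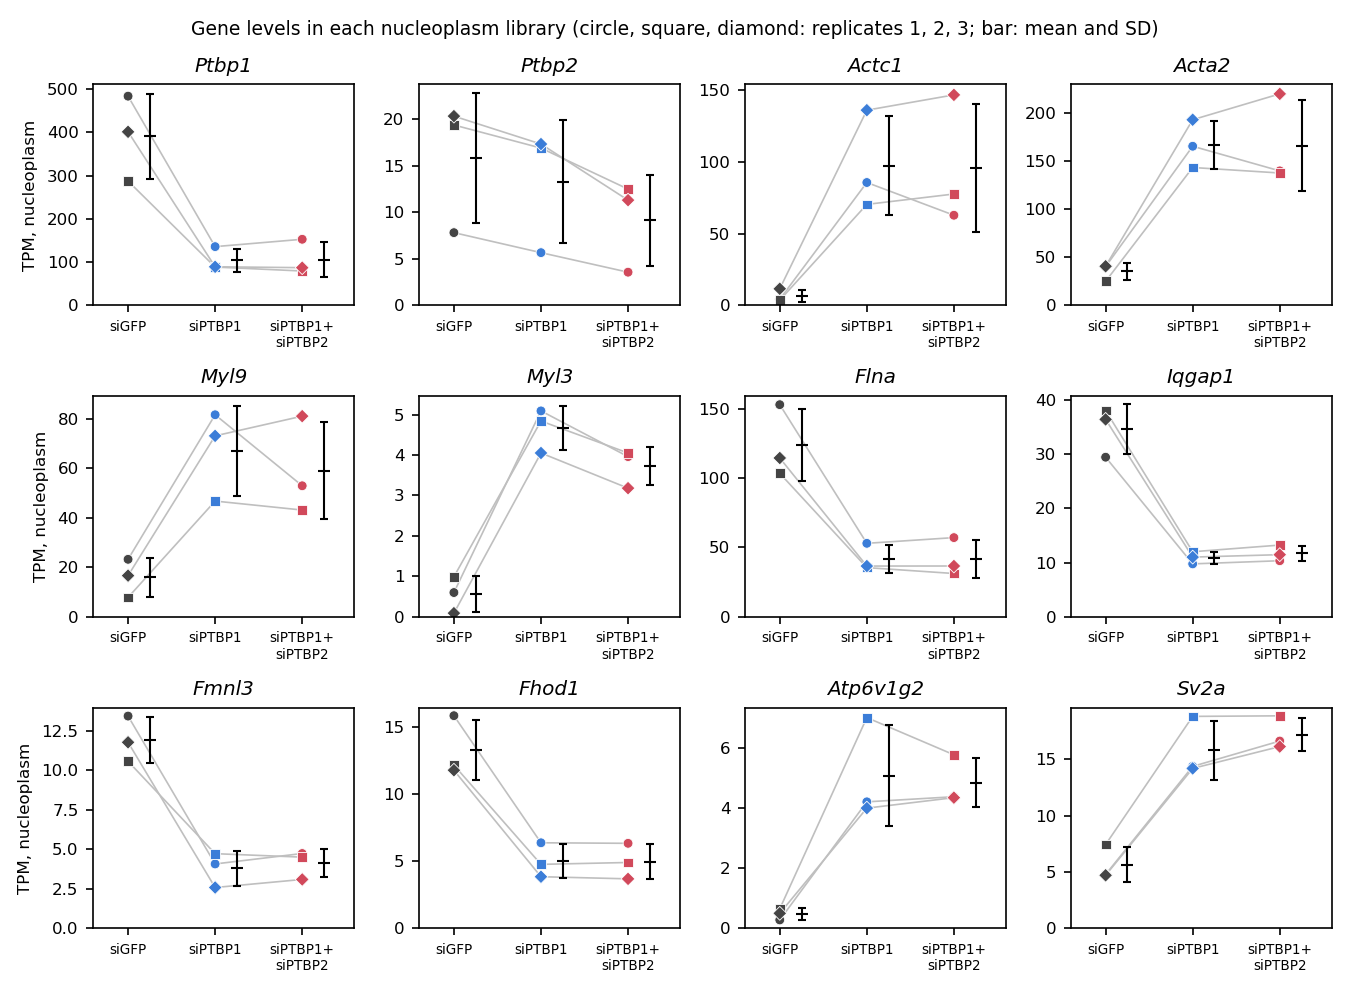
Level in TPM (linear axis from 0, 1 panel per gene) of selected genes in each nucleoplasm library of the siGFP, siPTBP1 and double-knockdown groups; circles, squares and diamonds are replicates 1, 2 and 3, and bars give the mean and SD. Actc1 lay between 3.6 and 11.53 TPM in the siGFP libraries and between 62.74 and 146.56 TPM in the double knockdown.

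The transcription factor SRF drives many actin and contractile genes through the CArG box, a site of CC, 6 A or T, and GG, and YAP acts on an overlapping set. Srf itself went from 25.67, 13.63 and 17.7 TPM to 42.96, 25.5 and 33.41 TPM, a log2 difference of 0.82 ± 0.22 (limma, adjusted p = 0.0381). The groups overlapped, and the call was lost without the block (adjusted p = 0.8) and without any single one of the 6 libraries (adjusted p up to 0.138). Of the 17 SRF and YAP targets tested, 4 were called higher (Srf, Acta2, Cnn2 and Myl9) and none lower, beside 1.81% called higher over all genes tested. The median log2 difference of the 17 was 0.54. Acta2, Cnn2 and Myl9 also belong to the list of actins, light chains and calponins above, so their calls are no separate support. Without all replicate 1 libraries 10 of the 17 were called higher, when 587 genes were called higher in all, and without the block 0. The summed level of the SRF and YAP list was higher in the double knockdown in each pair, at 894, 504 and 645 TPM in the control and 1230, 917 and 1350 TPM in the double knockdown. Shared members such as Acta2 and Myl9 are part of that sum. Immediate early targets of SRF were not called, with log2 differences of -0.25 for Fos, 0.17 for Egr1 and -0.42 for Junb. The YAP targets Ctgf and Cyr61 had log2 differences of 0.46 and 0.54 and were not called. 3 further members, the calponin Cnn1 at 1.16 ± 0.34, the transgelin Tagln at 0.80 ± 0.34 and the focal adhesion protein Vcl at 0.64 ± 0.26, did not pass the test either (limma, adjusted p = 0.0736, 0.226 and 0.202).

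The promoter windows with a CArG box are shown for those members of the contractile and SRF and YAP lists that were called higher. Windows run from 250 bases before to 50 bases after the RefSeq start (GRCm38.p6, the mm10 assembly), both strands were searched for the exact box, and 488 of the 27025 promoters in that table hold one (1.81%). Of the 6 contractile genes called higher 5 held a box, and Acta2 had no exact match in its window. One of the 5, Myl3, had passed the filter only through the double knockdown. The share among uncalled members of the same lists was not taken, and contractile genes are known for the box, so the 5 are a description only. Of the genes called higher only 165 of 263 had a promoter in the table, so a share over all of them is void. Boxes are in capitals, each line runs 5′ to 3′ on the gene's strand, and a match is a run of letters, not a measured binding site.
Actc1 (chr2:114052893-114052942, minus strand): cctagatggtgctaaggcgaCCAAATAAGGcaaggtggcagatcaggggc
Acta1 (chr8:123894819-123894868, minus strand): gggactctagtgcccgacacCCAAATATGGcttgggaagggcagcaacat
Myl9 (chr2:156775283-156775332, plus strand): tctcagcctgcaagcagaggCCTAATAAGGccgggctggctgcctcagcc
Myl3 (chr9:110763573-110763622, plus strand): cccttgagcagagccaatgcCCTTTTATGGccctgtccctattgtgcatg
Cnn2 (chr10:79988524-79988573, plus strand): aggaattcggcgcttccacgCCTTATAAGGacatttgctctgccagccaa
Srf (chr17:46556195-46556264, minus strand): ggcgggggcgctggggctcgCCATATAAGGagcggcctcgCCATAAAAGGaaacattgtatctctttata
Among genes called lower, Actg1, the actin-bundling gene Lima1, Tyms, Arrdc4 and Sap30bp also held a box, so the box was found on both sides. Of genes with a promoter in the table, 11 of 165 called higher (6.67%) and 5 of 156 called lower (3.21%) held one. Over all genes tested it was 159 of 10070 (1.58%). Genes without a promoter there are missing from these counts, which are a description only.

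Several crosslinkers and organisers of cortical actin fell. Flna, the filamin that joins actin filaments into networks (chrX:74223461-74249820), went from 152.89, 103.4 and 114.46 TPM to 57.08, 31.21 and 36.62 TPM, with no overlap and a log2 difference of -1.57 ± 0.24 (limma, adjusted p = 0.000337). Flnc, the filamin of muscle, had higher levels instead, at 19.47, 16.09 and 15.34 TPM in the control and 49.46, 39.99 and 41.53 TPM in the double knockdown. The Flnc groups did not overlap, but its log2 difference of 1.31 ± 0.47 did not pass the test (limma, adjusted p = 0.142).

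Iqgap1, a scaffold that links small GTPases to actin, went from 29.46, 38.08 and 36.44 TPM to 10.35, 13.24 and 11.47 TPM and fell by 1.49 ± 0.18 (limma, adjusted p = 3.6e-05). The formins Fmnl3 and Fhod1, which elongate or bundle actin filaments, fell by 1.35 ± 0.17 and 1.27 ± 0.19 (limma, adjusted p = 3.6e-05 and 0.000244). Flna, Iqgap1, Fmnl3 and Fhod1 were also called without the replicate block. Of the 23 cortical crosslinkers, formins and non-muscle myosins tested, 5 were called lower and 1, Iqgap3, higher, beside 1.36% and 1.81% of all genes tested. The list's median was -0.12. Iqgap3 had a log2 difference of 0.54 ± 0.15 (limma, adjusted p = 0.0424), and its call was lost without the block (0.462) and without any single library (up to 0.189). Myosin heavy chains Myh9 and Myh10, the formins Diaph1, Diaph2 and Diaph3, and the membrane linkers Ezr, Rdx and Msn were not called. The 15 named lower genes also include Cald1, the caldesmon that holds tropomyosin on actin, which fell by 1.55 ± 0.22, Lima1, which crosslinks filaments and fell by 1.32 ± 0.17, and Unc45a, a chaperone of myosin, which fell by 1.43 ± 0.18 (limma, adjusted p = 0.000193, 4.48e-05 and 5.5e-05). Without the block Cald1 and Lima1 were no longer called (adjusted p = 0.0546 and 0.45).

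Atp6v1g2, the neuronal G subunit of the vacuolar proton pump (chr17:35233660-35238767), stood at 0.28, 0.65 and 0.5 TPM in the control and at 4.39, 5.79 and 4.36 TPM in the double knockdown. Gpc2, a heparan sulfate proteoglycan of growing axons (chr5:138273655-138280005), stood at 8.33, 10.57 and 6.05 TPM in the control and at 28.8, 31.76 and 25.17 TPM in the double knockdown. For both genes the groups were far apart and the spread within each was small. Gpc2 rose by 1.69 ± 0.16 (limma, adjusted p = 1.43e-06). The log2 difference of Atp6v1g2 was 1.98 ± 0.17, and it is one of the 26 genes that passed the filter only through the double-knockdown libraries. Sv2a, a glycoprotein of synaptic vesicles, went from 4.78, 7.44 and 4.71 TPM to 16.63, 18.87 and 16.14 TPM, a difference of 1.48 ± 0.19 (limma, adjusted p = 4.8e-05). Its paralog Sv2c rose by 1.26 ± 0.18 (limma, adjusted p = 0.000175). Cnih3, an auxiliary protein of AMPA-type glutamate receptors, was at 0.13, 0.18 and 0.23 TPM in the control and at 3.19, 1.59 and 1.78 TPM in the double knockdown, and it too passed the filter only through the latter.

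Most other neuronal genes did not pass the test. Of 20 presynaptic and synaptic genes tested, 5 were called higher and 0 lower (median 0.32), beside 1.81% called higher over all genes tested. Cnih3, 1 of the 5, had passed the filter only through the double knockdown. Among the 5 were Sv2a, Cnih3, the vesicle SNARE Vamp2 and Prrt2, which acts in transmitter release. Vamp2 and Prrt2 had log2 differences of 0.80 and 0.98 and were not called without the block (limma, adjusted p = 0.284 and 0.15). The Vamp2 call was also lost without control replicate 3 or double-knockdown replicate 1 (adjusted p up to 0.142), and that of Prrt2 without control replicate 3 or double-knockdown replicate 2 (up to 0.103). Of 19 genes of the neuronal cytoskeleton and of neuronal differentiation, 2 were called higher, Gpc2 and the kinesin Kif5a, and 0 lower, with a median of -0.05. Kif5a had a log2 difference of 0.84 ± 0.16 (limma, adjusted p = 0.00358, and 0.5 without the block). Neuronal tubulin Tubb3, the microtubule-associated genes Map2 and Mapt, the stathmins and the neurofilaments were not called. None of the 7 neural progenitor genes tested was called (median 0.17). Their summed level was 46.2 to 57 TPM in the control and 51.9 to 67.2 TPM in the double knockdown, 5 members were under 1 TPM in all 6 libraries, and the part of such cells in the neuronal genes was not tested. No member of the 19 splicing regulators of neurons and muscle was called (median 0.24).

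Other genes that rose include Slc22a17, the lipocalin-2 receptor, at 1.60 ± 0.18, and Tcf4, a basic helix-loop-helix transcription factor, at 1.38 ± 0.20 (limma, adjusted p = 1.44e-05 and 0.000199). Sez6, a membrane protein of dendrites, had a difference of 1.39 ± 0.24, and Gabre, the epsilon subunit of GABA-A receptors, 1.26 ± 0.17 (limma, adjusted p = 0.002 and 8.27e-05). Slc22a17 and Gabre were also called without the block, whereas Tcf4 and Sez6 were not (adjusted p = 0.272 and 0.132). The cytokine gene Il17b had a difference of 1.22 ± 0.28 (limma, adjusted p = 0.0166), which was lost without the block (adjusted p = 0.208) and without control replicate 1 or 3 or double-knockdown replicate 3 (up to 0.113).

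Genes whose introns or exons PTBP1 is known to regulate went both ways at the level of the whole gene. Of the 20 tested, 7 were called higher (among them Vamp2, Sv2a, Kif5a, Cnih3, Atp6v1g2 and Prrt2) and 3 lower (among them Tpm2 and Flna), with a median of 0.37. The shares over all genes tested were 1.81% higher and 1.36% lower. Of the 7, Atp6v1g2 and Cnih3 had passed the filter only through the double knockdown. The list was put together with results from these libraries known, so its count is not independent evidence of a direction. Gabbr1, a GABA-B receptor subunit with a PTBP1-regulated retained intron, stood at 11.14, 17.88 and 9.61 TPM in the control and at 21.44, 21.9 and 18.96 TPM in the double knockdown without overlap, and did not pass the test (log2 difference 0.69 ± 0.20, limma, adjusted p = 0.0607). Dlg4, the postsynaptic scaffold PSD-95 whose exon PTBP1 represses, had a log2 difference of -0.03 ± 0.17. Pkm, the pyruvate kinase with a choice between exclusive exons, had one of -0.58 ± 0.17 (limma, adjusted p = 0.0646). Gene TPM holds no splicing ratio, so these values do not measure exon use or intron retention.

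**Figure D2:**
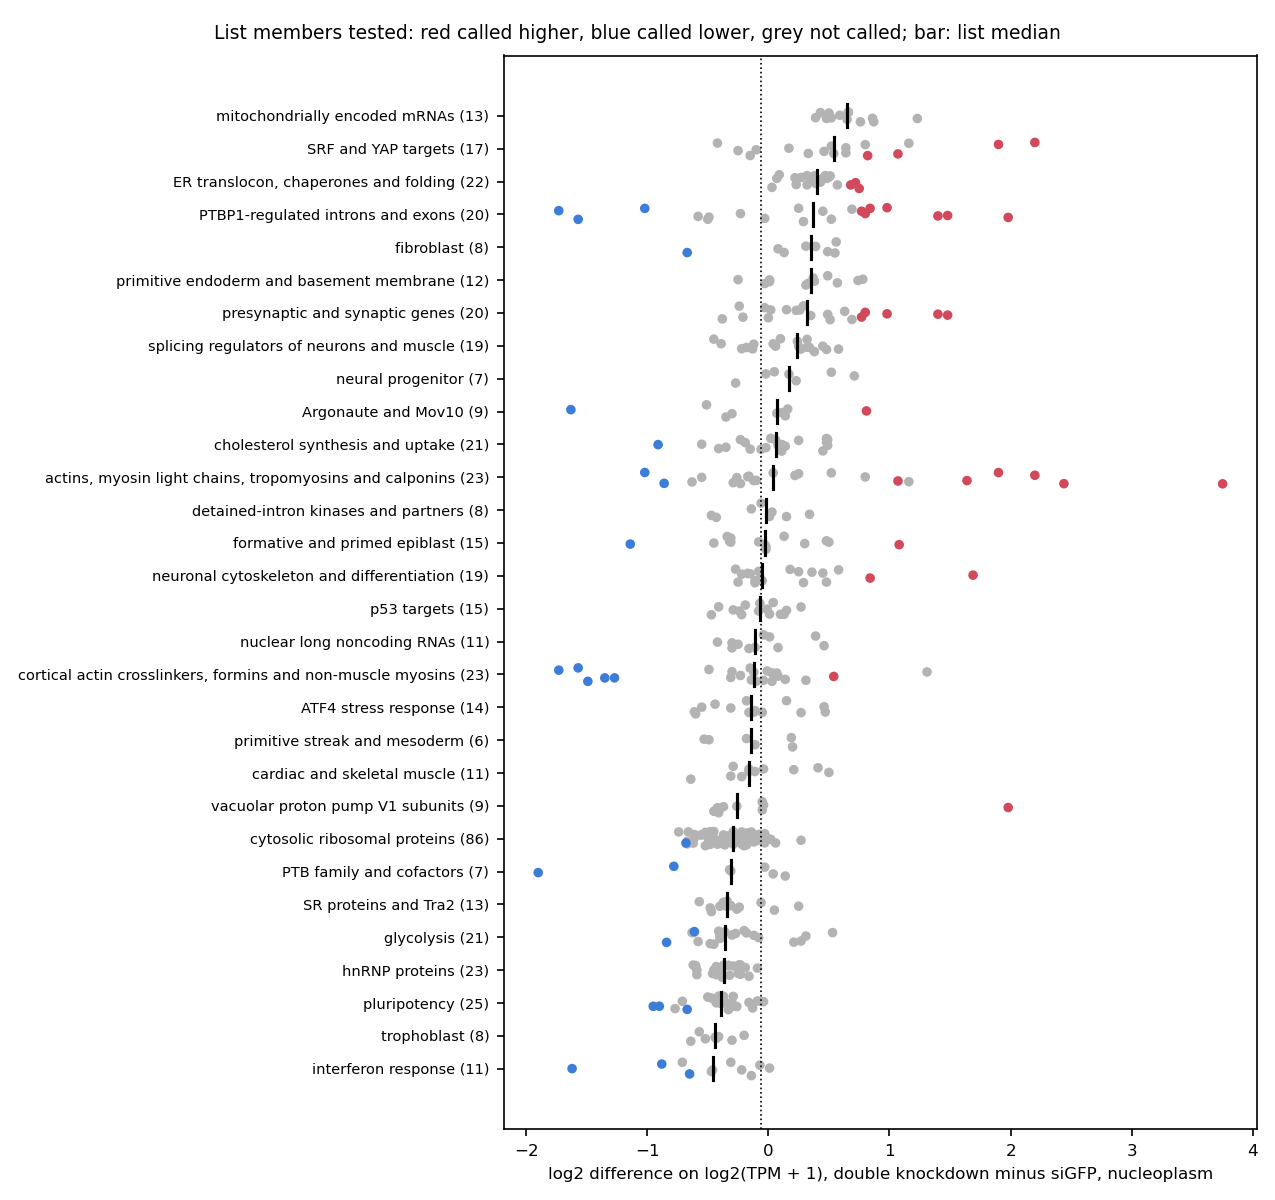
Log2 difference on the log2(TPM + 1) scale, double knockdown minus siGFP in nucleoplasm (horizontal axis), for each tested member of every gene list with at least 5 tested members (rows, number tested in brackets); red members were called higher, blue lower, grey not called, black bars mark list medians and the dotted line the median of all genes, -0.06. The contractile list holds the member farthest to the right, Actc1 at 3.75, and, with the cortical list and the PTBP1-regulated list, called genes on both sides of 0.

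The naming rule leaves out predicted gene names, and among the 30 genes that it took for their size of change 2 come from RNAs under 200 nt, whose TPM depends strongly on how fragment length is handled. Snord98, a small nucleolar RNA of the C/D class encoded within Ccar1, is listed at 4.89, 4.15 and 7.64 TPM in the control and at 0 in all 3 double-knockdown libraries. No fold is given against values of 0, and the limma test called it lower (adjusted p = 2.9e-05), but it is one of the 9 genes that passed the filter only through the control. A gene with a predicted name, Gm24962, annotated as a small nuclear RNA, is listed at 4.53, 4.83 and 3.58 TPM in the control and likewise at 0 in the double knockdown; it falls outside the rule and was named after its values were seen. The host gene of Snord98, Ccar1, stood at 27.9 ± 11.6 TPM in the control and 25.9 ± 9.31 TPM in the double knockdown (SD, n = 3) and was not called. The sequence of Snord98 is printed since its nucleoplasm and chromatin values went opposite ways. Capitals mark the letters of its C and D boxes, by which this class of RNA is recognised.
Snord98 (chr10:62765576-62765640, minus strand, GENCODE M21): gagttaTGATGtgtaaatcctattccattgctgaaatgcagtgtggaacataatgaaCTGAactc
The microRNA gene Mir7-1, which lies within Hnrnpk, is listed at 0, 0 and 3.65 TPM in the control and at 4.32, 8.23 and 8.1 TPM in the double knockdown (limma, adjusted p = 0.0226). That call was lost without the block (adjusted p = 0.168) and without any of the 6 libraries other than control replicate 3 (up to 0.121). Reads of polyadenylated RNA at this gene come from precursor or host RNA and do not measure the mature miRNA. Its product is shown with the seed, bases 2 to 8, in capitals, from RefSeq.
miR-7a-5p: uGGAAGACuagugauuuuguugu
Of the 569 tested genes under 200 nt, 8 were called higher and 5 lower, beside 263 (1.81%) and 198 (1.36%) of all 14513 genes tested.

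Tyms, the thymidylate synthase that supplies dTMP for DNA synthesis, went from 95.65, 77.52 and 92.53 TPM to 22.73, 25.92 and 35.33 TPM, with a log2 difference of -1.64 ± 0.22 (limma, adjusted p = 9.09e-05). Mov10, an RNA helicase that associates with Argonaute, went from 86.28, 70.48 and 69.75 TPM to 35.18, 19.49 and 19.12 TPM, a difference of -1.63 ± 0.19 (limma, adjusted p = 2.26e-05). Both genes had separate groups and were called without the replicate block. Of the 9 Argonaute and Mov10-related genes tested, Mov10 was called lower and the Argonaute-binding Tnrc6b higher (median 0.07). Tnrc6b had a log2 difference of 0.81 ± 0.20, and its call was lost without any library other than control replicate 1 (limma, adjusted p up to 0.138) and without the block (0.622). Pgm1, a phosphoglucomutase, fell by 1.36 ± 0.21 (limma, adjusted p = 0.000527, and 0.193 without the block).

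Genes of the interferon response had a low median. Isg15, a ubiquitin-like modifier, went from 9.47, 8 and 5.02 TPM to 3.47, 1.05 and 1.13 TPM, a log2 difference of -1.62 ± 0.23 (limma, adjusted p = 0.000193, and 0.0546 without the block). Of 11 members tested 3 were called lower, Isg15, the 2-5A synthetase-like Oasl2 and the transcription factor Irf1, and 0 higher, with a median of -0.46. That is 27.3% of the list, beside 1.36% called lower and a median of -0.06 over all genes tested. A similar median was also seen in lists without a call. It was -0.44 for trophoblast (8 tested) and -0.46 for the state like that of the 2-cell embryo (3 tested). Oasl2 and Irf1 had differences of -0.88 and -0.65. The Oasl2 call was lost without control replicate 1 or 2 or double-knockdown replicate 3 (adjusted p up to 0.101) and that of Irf1 without any library other than double-knockdown replicate 1 (up to 0.128). Neither was called without the block. The membrane proteins Bst2 and Ifitm3, the most abundant of the list, had differences of 0.01 and -0.07. Gbp2, a guanylate binding protein induced by interferons and not in that list, fell by 1.33 ± 0.26 (limma, adjusted p = 0.0051, and 0.129 without the block).

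Of 25 markers of pluripotency tested, 3 were called lower and 0 higher, with a median log2 difference of -0.39 beside -0.06 over all genes, of which 1.36% were called lower. Without all replicate 1 libraries 11 of the 25 were called lower, when 893 genes were called lower in all, and without the block 0 of the 25. Their summed level was lower in the double knockdown in every pair, at 5670, 5170 and 5540 TPM in the control and 4760, 3790 and 4190 TPM in the double knockdown. Zfp42 (Rex1), a marker of the naive state, went from 159.93, 302.49 and 395.47 TPM to 83.44, 153.85 and 206.32 TPM, with overlapping groups and a log2 difference of -0.95 ± 0.19 (limma, adjusted p = 0.0051, and 0.929 without the block). Nanog, a transcription factor of self-renewal, went from 101.13, 86.72 and 106.74 TPM to 45.43, 51.2 and 60.0 TPM without overlap, a difference of -0.90 ± 0.25 (limma, adjusted p = 0.0418). The Nanog call was lost without the block (0.455) and without any single library (up to 0.217). Tcl1, a cofactor of AKT, had a difference of -0.67 ± 0.17 (limma, adjusted p = 0.0314), and its call was lost without the block (0.947), under median-ratio scaling, and without control or double-knockdown replicate 2 or 3 (up to 0.159). Pou5f1, Sox2, Klf4 and Esrrb had differences between -0.44 and -0.30 and were not called.

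Of 15 genes of the formative and primed epiblast, Cdh2 was called higher and Dnmt3b lower. Dnmt3b, a de novo DNA methyltransferase, went from 180.2, 129.81 and 142.25 TPM to 100.93, 57.2 and 52.18 TPM, a log2 difference of -1.14 ± 0.18 (limma, adjusted p = 0.000468, and 0.134 without the block). Cdh2, the N-cadherin, went from 9.4, 14.78 and 14.23 TPM to 16.02, 36.02 and 36.66 TPM, a difference of 1.08 ± 0.21 (limma, adjusted p = 0.00462, and 0.519 without the block). In the lists for primitive endoderm and basement membrane (12 tested), primitive streak and mesoderm (6), trophoblast (8), cardiac and skeletal muscle (11) and the state like that of the 2-cell embryo (3), no gene was called. Of 8 fibroblast genes 1, Fbn1, was called lower, and the call was lost without the block (0.45) and without any single library (limma, adjusted p up to 0.169). Fibroblast genes summed to 392, 596 and 326 TPM in the control and to 564, 695 and 431 TPM in the double knockdown, largely Fn1. Cardiac and skeletal muscle genes summed to 43.3 to 57.4 TPM in the control and 41.1 to 51.4 TPM in the double knockdown. The part of such cells in the muscle-type actins was not tested beyond these sums.

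The 22 tested genes of the translocon, chaperones and folding enzymes of the endoplasmic reticulum (ER) had a higher sum in every pair, beside a higher share of mitochondrial RNA in the same libraries. They summed to 7010, 7960 and 7480 TPM in the control and to 8970, 11500 and 10700 TPM in the double knockdown. Their median log2 difference was 0.40, and 3 were called higher and 0 lower, beside 1.81% called higher over all genes tested. Without all replicate 1 libraries 13 of the 22 were called higher, when 587 genes were called higher in all. Rpn1, of the oligosaccharyl transferase, had a difference of 0.75 ± 0.20, the chaperone Hyou1 one of 0.72 ± 0.17 and the channel subunit Sec61a1 one of 0.68 ± 0.17 (limma, adjusted p = 0.0375, 0.0219 and 0.0295). The calls of Rpn1 and Sec61a1 were lost without any single library (up to 0.153 and 0.131), that of Hyou1 without control replicate 1 or 3 or double-knockdown replicate 1 or 2 (up to 0.144), and all 3 without the block. None of the 13 mitochondrially encoded mRNAs was called, with a median of 0.65 and a summed level of 96000, 155000 and 136000 TPM in the control and 149000, 224000 and 189000 TPM in the double knockdown. Both kinds of RNA were higher in the double knockdown in 3 of 3 pairs. Mitochondria and rough ER lie outside the nucleus, and the part that RNA carried over from them had in the ER values was not tested.

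**Figure D3:**
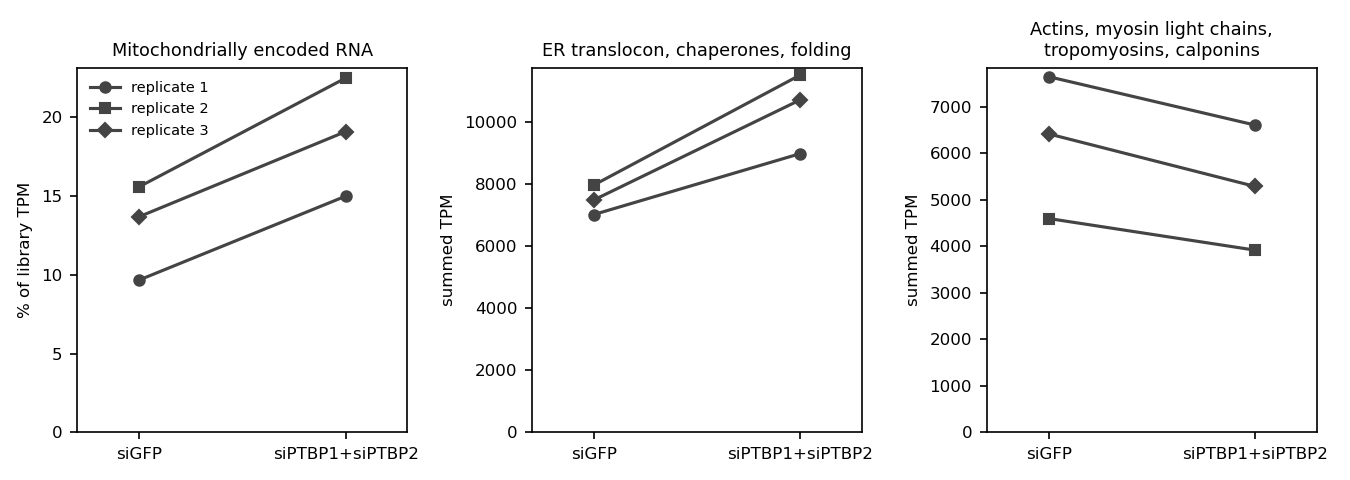
Share of library TPM from mitochondrially encoded genes (left, percent) and summed TPM of the ER list (middle) and of the actin, myosin light chain, tropomyosin and calponin list (right) in the siGFP and double-knockdown nucleoplasm libraries, with lines joining libraries of the same replicate number and all axes starting at 0. The first 2 quantities were higher in the double knockdown in all 3 pairs (mitochondrial share 9.68%, 15.6% and 13.7% against 15%, 22.5% and 19.1%), and the last was lower in all 3.

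Lists of abundant housekeeping genes lay on the low side with few calls. The 86 cytosolic ribosomal protein genes had a median of -0.29 with 1 called lower, and summed to 126000, 114000 and 118000 TPM in the control and 107000, 96700 and 100000 TPM in the double knockdown. The 23 hnRNP genes had a median of -0.37 with 0 called, and the 13 SR protein and Tra2 genes one of -0.34 with 0 called. Under median-ratio scaling the medians were -0.21, -0.30 and -0.27, and 3 of the hnRNP genes were called lower. Of 21 glycolysis genes 2 were called lower, the phosphofructokinases Pfkl at -0.84 ± 0.17 and Pfkp at -0.61 ± 0.15 (median -0.36). Pfkl was not called without the block (limma, adjusted p = 0.448), and Pfkp was lost without the block (0.866) and without any single library (up to 0.156). Of 21 genes of cholesterol synthesis and uptake 1 was called lower, the lanosterol synthase Lss at -0.91 ± 0.15 (limma, adjusted p = 0.000619, and 0.173 without the block). No gene was called among 15 p53 targets, 14 genes of the ATF4 stress response, 8 kinases and partners known for detained introns or 11 nuclear long noncoding RNAs, which include Malat1 and Neat1.

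Whether the effect in the nucleoplasm differed from that in the other fractions was tested as a difference of effects in the same fit. Against the cytoplasm 3 genes differed (0.0207% of those tested), and against the chromatin 27 (0.186%), with 791 and 862 genes at an unadjusted p under 0.05. Among the 3, Snord98 and Gm24962 are listed at 0 in all 6 cytoplasm libraries of both groups, so their differences are their nucleoplasm differences again and show no different effect in the cytoplasm. The genes called in NP mostly had the same sign elsewhere. Of the 263 called higher, 245 were higher on average in CY (93.2%) and 247 in CH (93.9%), where 7251 and 8613 (59.3%) of all 14513 genes tested were higher. Of the 198 called lower, 189 were lower in CY (95.5%) and 157 in CH (79.3%), where 49.0% and 40.4% of all genes tested were lower. The labels do not say whether fractions with the same replicate number come from 1 culture. Libraries of the same number correlated across fractions, so the shared sign is not treated as independent of the NP libraries. The median effect of the called lower genes was -0.80 in NP, -0.62 in CY and -0.30 in CH. That of the called higher genes was 0.79, 0.47 and 0.44 in the same order, and that of all genes tested -0.06, 0.0 and 0.06. The called genes were chosen by their NP values, so smaller medians in the other fractions follow in part from that choice.

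In the comparison with chromatin 23 of the 27 differences were negative (0.158%) and 4 positive (0.0276%), and 22 of these 23 genes had a higher mean effect than 0 in chromatin, the exception being Atp10a. Flna stood at 1154.53, 466.35 and 775.85 TPM in control chromatin and at 877.17, 656.52 and 1034.49 TPM in double-knockdown chromatin, with overlap, while it was lower in the nucleoplasm in each pair. The difference of effects was -1.74 ± 0.34 (limma, adjusted p = 0.0225). It was lost without the block (adjusted p = 0.404) and without control chromatin replicate 2 or 3, control nucleoplasm replicate 1 or 2, double-knockdown chromatin replicate 3 or double-knockdown nucleoplasm replicate 2 or 3 (up to 0.114). Tpm2 went in opposite directions, from 33.47, 35.9 and 31.86 TPM to 52.45, 91.96 and 68.64 TPM in chromatin and down in the nucleoplasm, with no overlap in either fraction and a difference of effects of -2.04 (limma, adjusted p = 0.00532, and 0.105 without the block). Fmnl3 stood at 45.51, 43.17 and 34.07 TPM in control chromatin and 42.42, 45.35 and 35.84 TPM with the double knockdown, a difference of effects of -1.36 ± 0.23 (limma, adjusted p = 0.00872, 0.394 without the block and 0.0502 without double-knockdown nucleoplasm replicate 3). Other genes with a negative difference were Kif2c, a microtubule-depolymerising kinesin of mitosis, at -1.36 ± 0.22, and Taok3, a kinase, at -1.48 ± 0.21 (limma, adjusted p = 0.00666 and 0.00181). Neither was called without the block.

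The 4 positive differences against chromatin were those of Gpc2, Slc22a17, Gabre and Mir7-1. Gpc2 stood at 33.42, 53.73 and 44.98 TPM in control chromatin and 55.46, 79.06 and 64 TPM with the double knockdown, so that its effect was 1.69 in NP and 0.59 in CH. That difference of 1.10 was lost without the block (limma, adjusted p = 1.0) and without any library other than control chromatin replicate 1 (up to 0.235). In the cytoplasm Gpc2 was at 1.33 ± 0.212 TPM in the control and 2.33 ± 0.457 TPM in the double knockdown (SD, n = 3), and the difference of effects between NP and CY was 1.18 ± 0.23 without passing the test (limma, adjusted p = 0.0972).

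**Figure D4:**
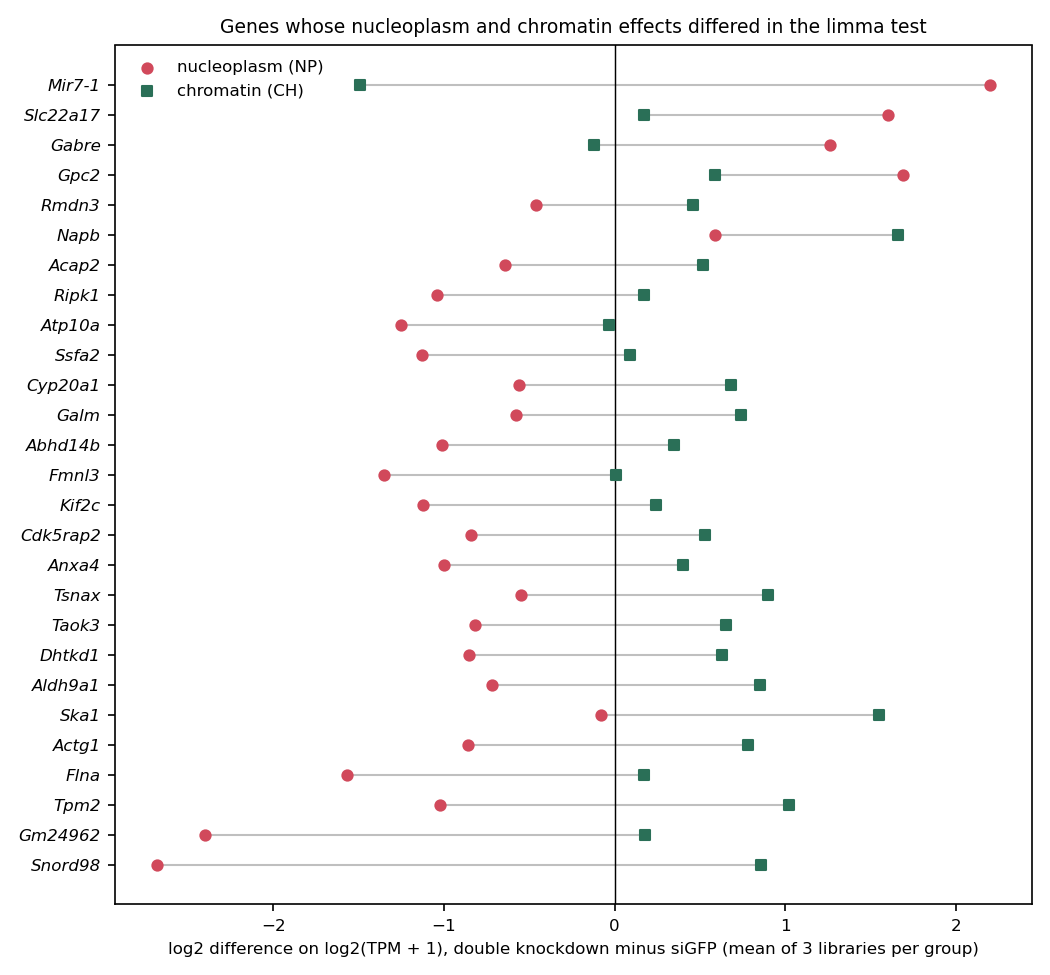
Log2 difference on the log2(TPM + 1) scale of the double knockdown minus siGFP in nucleoplasm (red circles) and in chromatin (green squares), means of 3 libraries per group, for the 27 genes (rows) whose effects differed between the fractions in the limma test. Of these 27, 23 lie farther left in the nucleoplasm, and the 4 at the top, Mir7-1, Slc22a17, Gabre and Gpc2, lie farther right.

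Whether the added siRNA against Ptbp2 changed the nucleoplasm was asked by comparing the double knockdown with siPTBP1 alone. No gene of the 14513 was called (0.0%; limma, smallest adjusted p = 0.0947), and 172 had an unadjusted p under 0.05. Ptbp2, the target of the added siRNA, stood at 13.3 ± 6.62 TPM with siPTBP1 and 9.12 ± 4.85 TPM with the double knockdown (SD, n = 3). Each pair was lower, from 5.66, 16.9 and 17.33 TPM to 3.56, 12.49 and 11.3 TPM, with overlapping groups. Its log2 difference of -0.51 ± 0.16 had an unadjusted p of 0.00342 and did not pass the test over all genes (limma, adjusted p = 1.0). Ptbp1 stood at 104 ± 27.1 and 106 ± 40.3 TPM, Actc1 at 97.2 ± 34.3 and 95.6 ± 44.7 TPM, Acta2 at 167 ± 24.9 and 166 ± 46.9 TPM, and Flna at 41.7 ± 9.8 and 41.6 ± 13.6 TPM in these groups. Both knockdowns are set against the same siGFP libraries, so their differences from control are not independent.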

How the data were processed

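Polyadenylated RNA was sequenced from the 27 libraries with a stranded kit, per the labels' protocols. The deposited values are TPM per gene, which the authors made. The submitters' processing notes name STAR, kallisto and mm10, and versions are not given in the sources used here. TPM keeps no depth, so counting errors are unknown. Symbols and coordinates came from GENCODE M21 (53274 of 53379 gene IDs matched). Log2(TPM + 1) was fitted with limma 3.58.1 in R 4.3.3 (trend and robust settings, two-sided) on all 27 libraries, with 9 group means and replicate number as a block (16 residual degrees of freedom); the script was tested on simulated data. Genes with TPM of at least 1 in 3 of the 6 libraries compared were tested, and Benjamini-Hochberg adjusted p under 0.05 was called. Errors of log2 differences are standard errors. The 108 pairs of libraries that share a number correlated by 0.258 to 0.771 after removal of group means, and each library correlated best with one of its own number; no label says what a replicate number shares, so the pairing rests on the data. Named genes were the 15 largest called differences in each direction among genes whose groups did not overlap, whose 3 pairs went one way and whose mean reached 1 TPM in either group (predicted genes, clones, Rik and Gm-number symbols and pseudogenes were left out), up to 5 each way for the other contrasts, and up to 4 members per list. Acta1, Flnc, Iqgap3, Kif2c, Taok3 and several uncalled list members were chosen after their values were seen. The members and lists were chosen with earlier results of these data known. Alternatives were other pseudocounts, filters, scalings, blocks and omitted libraries. Intron retention was not analysed here. Some results that the naming rule covers are not reported here.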

Additional observations from a re-analysis of the deposited data

Results flagged for a closer look

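A test of the difference between fractions picked out 10 results described here, in which the effect of the double knockdown in nucleoplasm was not the same as in cytoplasm or chromatin. Each difference is the nucleoplasm effect minus that of the other fraction on the log2(TPM + 1) scale, with a limma adjusted p under 0.05.

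Against cytoplasm, Snord98 differed by -2.68, with the call lost in 9 of the 12 fits with a library left out (adjusted p up to 0.166). It is listed at 0 in all 6 cytoplasm libraries of both groups, so this difference is its nucleoplasm difference again and does not show another effect in the cytoplasm. Snord98 is also listed at 0 in every double-knockdown nucleoplasm library, so its value depends on the pseudocount and is no measure of size.

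Against chromatin, genes of the actin cytoskeleton differed downwards: Tpm2 by -2.04, Flna by -1.74 and Actg1 by -1.64. Actg1 was at 2260.82, 876.61 and 1586.68 TPM in control chromatin and at 2352, 2247.83 and 3025.18 TPM with the double knockdown, and its difference was lost without any of the 12 libraries other than replicate 1 of control chromatin and of the double knockdown in both fractions (adjusted p up to 0.182). Ska1, a kinetochore protein, differed by -1.63 with a nucleoplasm effect of -0.08 and a chromatin effect of 1.55. Its chromatin levels were 10.77, 21.8 and 22.44 TPM in the control and 35.87, 75.02 and 55.27 TPM with the double knockdown, without overlap. Snord98 differed by -3.54. In chromatin it stood at 37.28, 137.54 and 117.81 TPM in the control and 86.47, 258.43 and 164.88 TPM in the double knockdown, higher in each pair.

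Upward differences against chromatin were 1.10 for Gpc2, 1.42 for Slc22a17, 1.38 for Gabre and 3.68 for Mir7-1. Mir7-1 was at 124.01, 104.42 and 244.55 TPM in control chromatin and at 23.1, 57.3 and 103.21 TPM with the double knockdown, lower in each pair. The difference of Mir7-1 was lost without any library other than control nucleoplasm replicate 3 (adjusted p up to 0.178), that of Gpc2 without any other than control chromatin replicate 1 (up to 0.235), and that of Slc22a17 without control chromatin replicate 3 (0.0585).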

How the results depend on the processing

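The count of 461 genes called in nucleoplasm was 33 with no replicate block, 301 with no filter on low values, 858 under median-ratio scaling, 999 after quantile normalization and 723 in TPM without mitochondrial genes and Mir6236. It was 1380 with the replicate block on the libraries of the contrast only, 1769 with a replicate block in each fraction, 1480 without all replicate 1 libraries, and 144 to 233 with 1 of the 6 libraries left out. None of the 461 changed sign under the scalings or with libraries left out. A different block or filter leaves the estimated log2 difference as it is, so no sign could change there. The 0 genes called against siPTBP1 became 1 with a pseudocount of 0.1 and with the filter on all 27 libraries, 2 without mitochondrial genes, 3 on the contrast's libraries, 3 without replicate 1, and 0 to 1 with a library left out. The 3 genes that differed from cytoplasm were 1 without the block, with the wider filter and with none, 7 with the smaller pseudocount, 6 with median-ratio scaling and without mitochondrial genes, 13, 8 and 12 under the contrast-only block, the block per fraction and without replicate 1, and 1 to 6 with a library left out. The 27 that differed from chromatin were 2 without the block, 68 unfiltered, 49, 106 and 95 in that order, and 11 to 21. The cause was not tested. The depth behind TPM is unknown, and 3 replicates per group limit what can be called.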

Other observations

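Several gene families outside the lists held more than 1 called gene; they were picked after the values were seen and are descriptions only, beside 3.18% called over all genes. Of 14 clustered gamma protocadherins, cell adhesion proteins of neurons, 8 were called higher and 0 lower (median 0.63). Of these 8, 7 had passed the filter only through the double-knockdown libraries, so their count is no support. Pcdhga10, one of the 7, went from 0.8, 0.89 and 0.94 TPM to 2.31, 3.14 and 2.96 TPM. These genes share their last exons, so reads cannot be assigned among them with certainty and the 8 are not separate measurements. Of the 8 calls, 5 held with each library left out in turn and 4 without the replicate block. Of 10 Frizzled receptors, which bind Wnt proteins, Fzd1, Fzd2, Fzd6 and Fzd8 were called higher, Fzd2 from 25.12, 27.14 and 17.08 TPM to 45.04, 47.51 and 33.25 TPM. None of these 4 was called without the replicate block, and each was lost with 1 of several libraries left out (adjusted p up to 0.159).

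Genes for membrane transport and for lipid anchors of surface proteins were also on the high side. Of 194 solute carriers other than the mitochondrial Slc25 family, 15 were called higher and 0 lower (7.73%, median 0.21). Slc1a4, a carrier of neutral amino acids, went from 65.39, 64.09 and 52.13 TPM to 144.46, 128.1 and 106.84 TPM, and Slc7a7, of the y+L transport system, from 286.21, 217.09 and 271.11 TPM to 567.84, 313.36 and 420.96 TPM. The Slc7a7 call was lost without control replicate 1 (limma, adjusted p = 0.0521). Of 22 genes of the glycosylphosphatidylinositol anchor, Pigt, Pigu, Pigc and Pgap3 were called higher and 0 lower (median 0.34). The mitochondrially encoded share was higher in the same pairs, and its part in these values was not tested. Of 7 guanylate binding proteins and immunity-related GTPases, Gbp2, Gbp2b, Gbp3, Irgm1 and Tgtp1 were called lower (median -0.67), and Parp10 and Parp14 were the 2 called lower of 11 Parp genes. With each library left out in turn, calls held for 2 of the 15 solute carriers, 2 of the 4 anchor genes, 2 of the 5 GTPases and 0 of the 2 Parp genes, and without the replicate block for 1 of the solute carriers and none of the others.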
